A study of Mus musculus with 4 samples.

Results

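Genes of mitosis and of the spindle were followed in primary chondrocytes, the matrix-producing cells of cartilage, that either kept or were bred to lose Rela, a subunit of the transcription factor NF-κB, and that were cultured with or without tumour necrosis factor (TNF). The group held 46 genes, chosen by their function, out of 37042 genes or unnamed transcripts on the array. All cells came from 6-day-old C57BL/6J mice that carried floxed Rela alleles. Rela fl/fl cells had no Cre, and Prrx1-Cre; Rela fl/fl cells, labelled cKO, carried a Cre driven by Prrx1, which acts in limb mesenchyme. Each genotype was cultured for 3 days with 10 ng ml−1 TNF or without it, and 1 array was hybridised per combination, 4 in all, so values have no replicates and conditions were not tested against each other. The labels do not say how many mice or cultures stand behind an array.

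A dividing cell builds its mitotic machinery in a set order. Cyclin A2, the B cyclins and their kinase Cdk1 start mitosis, the kinetochore ties each chromosome to spindle microtubules, and the spindle checkpoint holds the cell until every chromosome is attached. Cdc20 then switches on the anaphase-promoting complex, the sister chromatids part, and the midzone and the contractile ring split the cell. Transcripts of these genes are scarce early in the cell cycle and abundant in G2 and mitosis, so in RNA from a whole culture their level rises with the share of cells near division. In such RNA, more dividing cells and more transcript per dividing cell cannot be told apart. In growing cartilage, division is a trait of the columnar zone, and chondrocytes leave the cycle when they enlarge. Cultured chondrocytes also divide.

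Many G2 and mitosis genes share short promoter elements. The cell-cycle genes homology region (CHR, TTTGAA or TTCGAA) is bound by the DREAM complex in resting cells and by complexes with B-Myb and Foxm1 in dividing cells, and the CCAAT box is bound by NF-Y. RefSeq windows of GRCm38.p6, from 250 bases before to 50 after a gene's start, were at hand for 38 of the 46 genes, with 43 windows in all. Both strands were searched for TTTGAA, for TTCGAA, which reads the same on both, and for CCAAT, each on its own, so that matches may share bases. The windows of Cdk1, Cdc20, Ccnb2 and Top2a are shown because each holds a CHR before its start, and only the 250 bases before the start are printed, 5′ to 3′ in the direction of the gene. Capitals mark the CHR and the CCAAT box as read on either strand, so that a CCAAT box on the other strand reads ATTGG and a CHR on it TTCAAA. Cdk1, at chr10:69352913-69353162 on the minus strand, Cdc20, at chr4:118437344-118437593 on the minus strand, Ccnb2, at chr9:70421555-70421804 on the minus strand, and Top2a, at chr11:99024190-99024439 on the minus strand, read as follows.
Cdk1: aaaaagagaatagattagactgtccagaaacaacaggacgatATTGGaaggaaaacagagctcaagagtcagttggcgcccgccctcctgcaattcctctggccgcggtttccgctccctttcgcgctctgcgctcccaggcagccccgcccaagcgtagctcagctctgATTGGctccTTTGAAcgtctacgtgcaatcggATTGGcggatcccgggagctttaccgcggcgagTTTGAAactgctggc
Cdc20: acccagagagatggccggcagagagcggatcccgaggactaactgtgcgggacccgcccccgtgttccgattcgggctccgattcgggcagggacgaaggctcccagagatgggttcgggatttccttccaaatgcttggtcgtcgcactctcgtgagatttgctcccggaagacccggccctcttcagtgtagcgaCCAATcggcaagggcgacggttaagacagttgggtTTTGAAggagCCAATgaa
Ccnb2: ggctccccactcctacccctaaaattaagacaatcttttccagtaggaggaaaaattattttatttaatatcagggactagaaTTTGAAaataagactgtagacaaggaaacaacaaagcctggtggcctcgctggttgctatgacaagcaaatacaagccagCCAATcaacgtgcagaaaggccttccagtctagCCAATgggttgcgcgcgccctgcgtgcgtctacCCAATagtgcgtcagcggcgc
Top2a: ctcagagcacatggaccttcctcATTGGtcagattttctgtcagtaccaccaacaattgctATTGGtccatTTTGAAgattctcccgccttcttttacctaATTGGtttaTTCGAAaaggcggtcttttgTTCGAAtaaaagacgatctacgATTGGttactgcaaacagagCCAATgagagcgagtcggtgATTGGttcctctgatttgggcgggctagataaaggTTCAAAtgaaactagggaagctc

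The CHR of Cdk1 nearest to its start began 15 bases before it, and that of Cdc20 began 18 bases before it. In Ccnb2, 1 CHR began 167 bases before the start and another, in the part of the window not printed, 5 bases after it, and 3 CCAAT boxes stood at 87, 54 and 21 bases before the start. Ccnb1 held no CHR in its window, and those of Plk1 and Aurka began after the start. Top2a held 4 CHR matches, the nearest beginning 23 bases before the start and read on the other strand. Over the 43 windows of the mitosis and spindle genes, 32 held either form of the CHR (74.4%), compared with 19.2% of the 32851 windows of all genes. In 29 of them (67.4%) a CHR began within 50 bases of the start, compared with 5.31% of all windows. A CCAAT box was found in 34 windows (79.1%, compared with 37.4% of all), and both motifs in 28 (65.1%, compared with 7.52% of all). Genes of DNA replication, which are active earlier in the cell cycle, had a CHR in 6 of 35 windows (17.1%) and a CCAAT box in 21 (60%). Of 42 windows of other mitotic genes, 64.3% held a CHR, 64.3% a CCAAT box and 50% both. A match describes the letters of the window and not the binding of a factor. Ccna2, Foxm1, Aurkb, Pbk, Incenp, Kif20a, Spc24 and Tpx2 had no window in the table used.

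**Figure D1:**
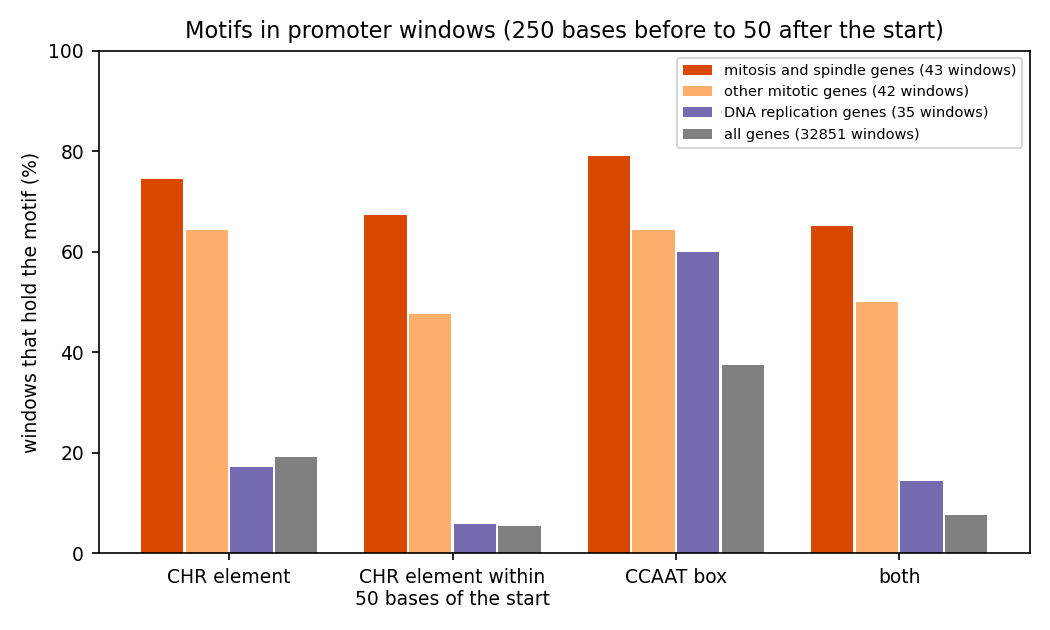
Share of promoter windows (%) that hold a CHR element, a CHR element beginning within 50 bases of the start, a CCAAT box, or both a CHR element and a CCAAT box, for the mitosis and spindle genes (43 windows), 42 windows of other mitotic genes, 35 windows of DNA replication genes and the 32851 windows of all genes. The mitosis and spindle genes held a CHR in 74.4% of windows, the other mitotic genes in 64.3% and the DNA replication genes in 17.1%.

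On the arrays, 45 of the 46 genes were well above background in all 4 conditions, and Cenpf was so on 1 array alone. The genes were read by 64 probes, the brightest of which stood for a gene, and 45 were read by a single spot of that probe. Signals are given relative to the 75th percentile of the same array, which is 1, and a signal of one gene cannot be set against that of another on an array. Probes spotted 10 times on each array gave a technical spread of 0.14 for a log2 difference between 2 arrays, which leaves out the spread between cultures. Differences beyond 2 of these spreads (0.28 on the log2 scale, 1.21-fold) were counted, as were differences beyond 1 on the log2 scale (2-fold).

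Some values of the arrays themselves move with the genotype label. Rela itself was at 28.3 without and 34.7 with TNF in Rela fl/fl cultures, and at 34.0 and 40.2 on the cKO-labelled arrays, so that it was not lower where it had been deleted by label. Whether its probe reads the deleted part was not examined. Targets of NF-κB had a median log2 difference of -0.08 without TNF and -0.70 with TNF on these arrays against Rela fl/fl, and 7 of 24 and 16 of 25 were lower beyond 2 technical spreads, where 11.1% and 10.5% of all genes were. Because Rela was not lower on them, these arrays are called the cKO-labelled arrays. Xist, which is transcribed in female cells, had signals of 0.715 and 0.752 in Rela fl/fl cultures and did not stand above background on the cKO-labelled arrays (0.0103 and 0.00796). Ddx3y, on the Y chromosome, was at 1.30 and 1.30 in Rela fl/fl cultures and at 3.66 and 4.23 on the cKO-labelled arrays, so the sex of the animals and the genotype label cannot be told apart. Markers of the cartilage cell were well above background on all arrays (15 of 15), with Col2a1 at 594 and 607 in Rela fl/fl cultures and at 582 and 607 on the cKO-labelled arrays. The summed signal of these 15 markers was 1883 and 1771 in Rela fl/fl cultures and 1437 and 1481 on the cKO-labelled arrays. Some spots lay in patches that were bright on a single array, and 17 of the 46 genes had a spot in one. These were 8 and 4 genes on the untreated and TNF-treated Rela fl/fl arrays, and 5 and 1 on the cKO-labelled arrays.

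Mitosis and spindle genes were higher on the cKO-labelled arrays than in Rela fl/fl cultures, by a small and similar amount without and with TNF. Without TNF, the median difference over the 45 genes was 0.31 on the log2 scale (1.24-fold), compared with 0.01 over all genes that passed the background mark on both, and 43 of the 45 lay above 0. With TNF, the median was 0.33 (1.26-fold), compared with 0.06 over all genes, and 44 of the 45 lay above 0. Beyond 2 technical spreads, 32 of 45 genes were higher without TNF (71.1%), where 13.9% of all genes were, and 0 were lower, where 11.1% of all genes were. With TNF, 29 of 45 were higher (64.4%), where 15.1% of all genes were, and 0 were lower, where 10.5% of all genes were. These comparisons share no array, and 23 of the 45 genes (51.1%) were beyond 2 spreads in both, compared with 5.02% of all genes. For 41 of the 45 (91.1%), the signals on both cKO-labelled arrays lay above those of both Rela fl/fl arrays, compared with 25% of all genes, and for 0 of them the order was reversed, compared with 16.2% of all genes. The exceptions, in which the arrays overlapped, were Bub3, Plk4, Ndc80 and Nuf2.

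**Figure D2:**
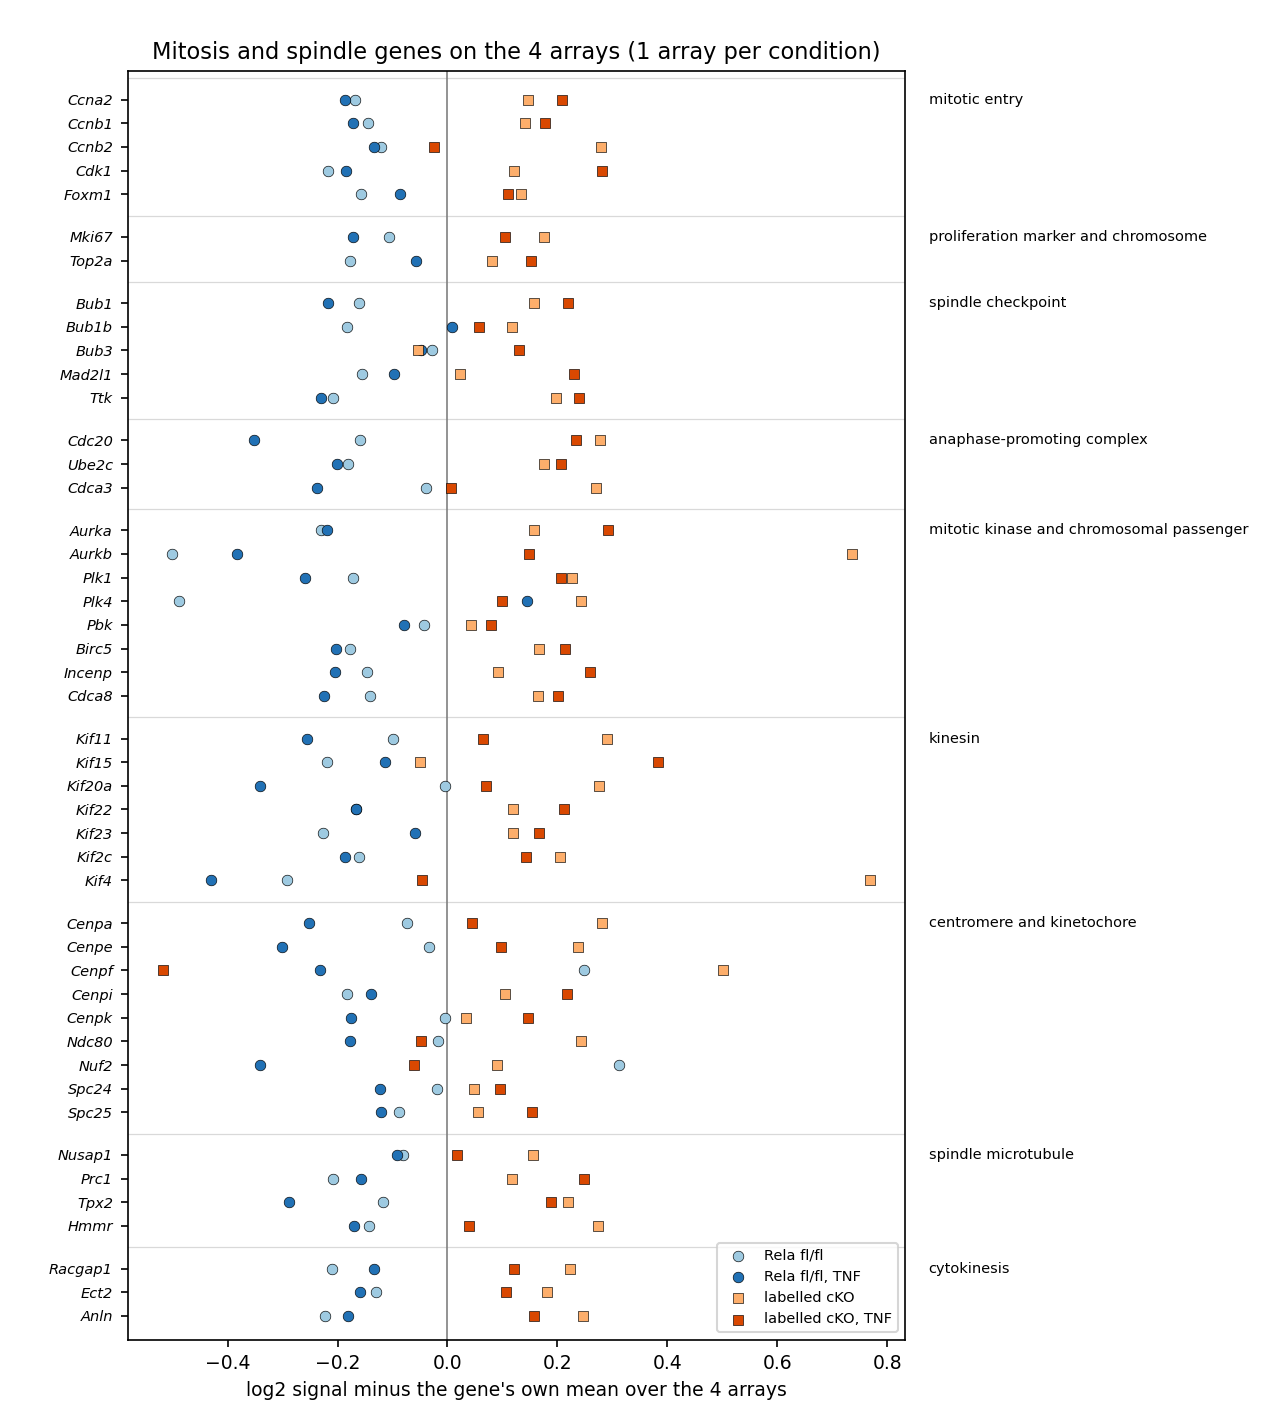
Log2 signal of each of the 46 genes on each of the 4 arrays, minus the mean of that gene over the 4 arrays, with the genes ordered by role. Circles are Rela fl/fl cultures and squares the cKO-labelled arrays, each without (light) and with (dark) TNF; for 41 of the 45 genes well above background on all arrays, both squares lie to the right of both circles.

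Because the cKO-labelled arrays and the Rela fl/fl arrays also differed in bright patches, the genes were counted again without spots in patches. Of 34 genes kept, 32 were well above background, and 31 of the 32 lay above 0 in each comparison. Their median differences were 0.30 without TNF and 0.33 with TNF, and 22 and 21 of the 32 were beyond 2 spreads, where 13.5% and 15.4% of all genes were. Both cKO-labelled arrays were above both Rela fl/fl arrays for 29 of 32 genes (90.6%), compared with 26.1% of all genes. With another background correction (normexp) in place of the deposited one, 24 and 19 of the 45 genes were higher beyond 2 spreads, where 8.65% and 8.66% of all genes were. The 14 genes with more than 1 probe had 18 further probes. Of the 16 well above background on all arrays, 14 were above 0 without TNF and 15 with TNF, with medians of 0.28 and 0.29. With the next brightest probe in place of the brightest where a gene had one, 28 and 24 of 44 genes were higher beyond 2 spreads, where 14.5% and 15.7% of all genes were.

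Genes that start mitosis were all above 0 in both comparisons. Ccna2, the cyclin of S phase and G2, had signals of 3.59 in Rela fl/fl cultures and 3.54 with TNF, and of 4.46 and 4.66 on the cKO-labelled arrays. Ccnb1, which drives the entry into mitosis with Cdk1, was at 4.01 and 3.93 in Rela fl/fl cultures and at 4.88 and 5.01 on the cKO-labelled arrays. Cdk1 was at 2.94 and 3.01, and at 3.72 and 4.15. The arrays of the 2 genotype labels did not overlap for any of these 3 genes, and the log2 differences ran from 0.29 (Ccnb1) to 0.34 (Cdk1) without TNF and from 0.35 (Ccnb1) to 0.47 (Cdk1) with TNF. The 2 further probes of Ccnb1 gave 0.39 and 0.52 without TNF, and 0.07 and 0.23 with TNF. A further probe of Cdk1, well above background on all 4 arrays, gave 0.43 without TNF and 0.72 with TNF. Another, well above background on only 2 arrays, gave 0.94 and 0.63. Foxm1, a transcription factor of the G2 programme, had signals of 0.719 and 0.755 in Rela fl/fl cultures and 0.880 and 0.865 on the cKO-labelled arrays. Its difference passed 2 spreads without TNF (0.29) and not with TNF (0.20), and its further probe gave 0.14 and 0.27, both within them. Ccnb2, the other B cyclin, differed by 0.40 without TNF and 0.11 with TNF, and its spot lay in a bright patch of the TNF-treated Rela fl/fl array. All 5 genes of this role were thus higher beyond 2 spreads without TNF, and 3 with TNF. Among all genes, the share higher beyond 2 spreads was 13.9% without TNF and 15.1% with TNF.

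The general markers of proliferation differed by about 2 spreads or less. Mki67, which coats mitotic chromosomes and is the usual proliferation marker, had signals of 9.69 in Rela fl/fl cultures and 9.25 with TNF, and of 11.8 and 11.2 on the cKO-labelled arrays. Top2a, the topoisomerase that untangles sister chromatids, was at 2.10 and 2.28, and at 2.51 and 2.63. Mki67 was 0.28 higher on the log2 scale in each comparison, just beyond 2 spreads, and its further probe gave 0.23 and 0.22, within them. Top2a was 0.26 and 0.21 higher, within 2 spreads, although both cKO-labelled arrays lay above both of the others.

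Of the spindle checkpoint, Bub1 gave the best measured value, since its probe was spotted 10 times on each array. Bub1 is the checkpoint kinase that marks kinetochores. Its spots ranged from 0.519 to 0.712 in Rela fl/fl cultures and from 0.496 to 0.577 with TNF, and from 0.693 to 0.734 and from 0.678 to 0.805 on the cKO-labelled arrays. The ranges with TNF did not overlap. Without TNF they overlapped by 1 spot, the highest of the Rela fl/fl array, which lay in a patch. The mean log2 difference was 0.32 without TNF and 0.44 with TNF, compared with SDs between spots of 0.13 and 0.06 on the Rela fl/fl arrays and 0.03 and 0.07 on the cKO-labelled arrays (n = 10, and 9 on the cKO-labelled array without TNF, where 1 outlier spot was left out). Spots are repeats of 1 hybridisation and not of a culture. Ttk, the kinase that recruits checkpoint proteins, differed by 0.41 and 0.47. Its spot was dim, at 0.103 and 0.102 in Rela fl/fl cultures and at 0.137 and 0.141 on the cKO-labelled arrays. Under normexp its differences were 0.04 without TNF and 0.21 with TNF, both within 2 spreads. Mad2l1, the inhibitor of Cdc20, differed by 0.18 without TNF and 0.33 with TNF. Its 2 further probes, well above background on all arrays, both gave 0.28 without TNF, and gave -0.07 and 0.004 with TNF. Bub1b, which joins Mad2l1 in the checkpoint complex, differed by 0.30 and 0.05, with a spot in a bright patch of the TNF-treated Rela fl/fl array. Bub3, the partner of Bub1 and Bub1b, had signals of 15.1 and 14.9 in Rela fl/fl cultures and 14.8 and 16.9 on the cKO-labelled arrays, and was 1 of the 2 genes below 0 without TNF (-0.03).

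**Figure D3:**
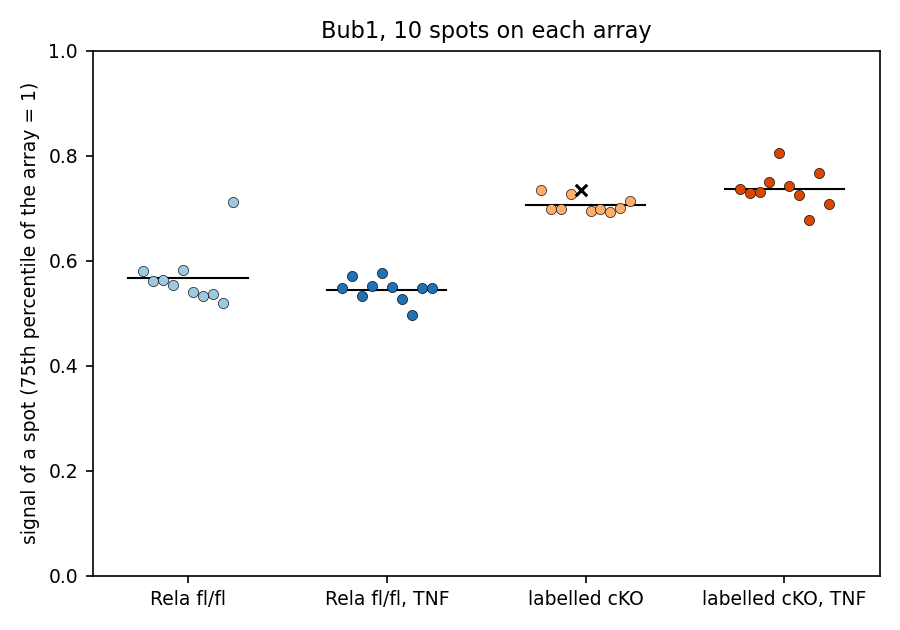
Signal of each of the 10 spots of the Bub1 probe on each array, relative to the 75th percentile of that array, with the mean of log2 values as a line; the cross is a spot flagged as an outlier and left out. With TNF the spots of the cKO-labelled array (0.678 to 0.805) lie above those of the Rela fl/fl array (0.496 to 0.577).

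The anaphase-promoting complex was read through its activator and its ubiquitin-conjugating enzyme. Cdc20, the activator, had signals of 11.4 in Rela fl/fl cultures and 9.98 with TNF, and of 15.4 and 15.0 on the cKO-labelled arrays. It differed by 0.44 without TNF and by 0.58 with TNF, the largest difference of any of the 45 genes there. Ube2c, the enzyme that works with the complex, differed by 0.36 and 0.41, with a spot in a bright patch of the cKO-labelled array with TNF. Cdca3, which helps to remove the mitosis inhibitor Wee1, differed by 0.31 and 0.24, with a spot in a bright patch of the TNF-treated Rela fl/fl array.

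Mitotic kinases and the chromosomal passenger complex had medians of 0.37 without TNF and 0.45 with TNF over 8 genes. Beyond 2 spreads, 6 of the 8 were higher in each comparison, where 13.9% and 15.1% of all genes were. Aurka, the centrosome kinase, had signals of 4.73 and 4.77 in Rela fl/fl cultures and 6.20 and 6.80 on the cKO-labelled arrays, differences of 0.39 and 0.51. Plk1, which acts from mitotic entry to cytokinesis, was at 8.91 and 8.38, and at 11.8 and 11.6, differences of 0.40 and 0.47. Both genes were lower on each Rela fl/fl array than on each cKO-labelled array. Birc5 (survivin), a member of the passenger complex with Aurkb, Incenp and Cdca8, was at 15.7 and 15.5, and at 19.9 and 20.6. Its differences were 0.34 and 0.42, and those of Cdca8 0.31 and 0.43. The further probe of Cdca8, with no spot in a patch, gave 0.19 and 0.27, both within 2 spreads. Incenp, the scaffold of the complex, differed by 0.24 and 0.46. Cdca8 and Incenp each had a spot in a bright patch of the untreated Rela fl/fl array. Pbk, a kinase active in mitosis, differed by 0.09 and 0.16 and stayed within 2 spreads.

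Aurkb and Plk4 departed from the rest. Aurkb, the kinase of the passenger complex, was dim, with signals of 0.0883 and 0.0959 in Rela fl/fl cultures and 0.208 and 0.139 on the cKO-labelled arrays. Its difference of 1.24 without TNF was the largest of the 45 genes and, with that of Kif4, 1 of 2 beyond 1 on the log2 scale, where 3.53% of all genes were higher and 4.14% lower. Aurkb and Kif4 each had their single spot in a bright patch of the cKO-labelled array without TNF, and with patches left out 0 genes of the group were beyond 1, where 233 of all 18376 genes tested were higher and 158 lower. With TNF, where no patch touched them, Aurkb differed by 0.53 (0.22 under normexp, within 2 spreads) and Kif4 by 0.38. In that comparison 0 of the genes were beyond 1 in either direction, where 1.17% of all genes were higher and 3.07% lower. Plk4, the kinase that starts the copying of centrioles, had signals of 0.0573 in Rela fl/fl cultures and 0.0888, 0.0951 and 0.0861 on the other 3 arrays, with no spot in a patch. The first array alone was low, at -4.13 on the log2 scale, near that array's lowest signal well above background (-4.25). Plk4 therefore differed by 0.73 without TNF and by -0.05 with TNF, the only difference below 0 there among the 45 genes. Under normexp its difference without TNF was 0.26, within 2 spreads.

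Kinesins, the motors of the spindle, were all higher on the cKO-labelled arrays. In each comparison 7 of 7 lay above 0, where 51.2% of all genes did without TNF and 60.4% with TNF. Beyond 2 spreads, 6 of 7 were higher in each, where 13.9% and 15.1% of all genes were. Kif11, which pushes the spindle poles apart, had signals of 0.340 and 0.305 in Rela fl/fl cultures and 0.445 and 0.380 on the cKO-labelled arrays, differences of 0.39 and 0.32. Kif4, a chromosome-bound motor, was at 0.546 and 0.496, and at 1.14 and 0.647. Apart from Kif4, the differences without TNF ran from 0.17 (Kif15, which assists Kif11) to 0.39 (Kif11), with Kif2c, which shortens microtubules, at 0.37. With TNF they ran from 0.22 (Kif23, the motor of the midzone) to 0.50 (Kif15). Kif15 was dim, at 0.0877 and 0.0943 in Rela fl/fl cultures and at 0.0985 and 0.133 on the cKO-labelled arrays. Under normexp its difference with TNF was 0.22, within 2 spreads. A further probe of Kif2c, well above background on all 4 arrays, differed by -0.02 without TNF and 0.49 with TNF. Kif20a, which carries the passenger complex to the midzone, differed by 0.28 and 0.41, and Kif22, which moves chromosomes to the spindle equator, by 0.29 and 0.38. The spots of Kif20a and Kif23 lay in patches of the cKO-labelled array without TNF, and that of Kif23 also in a bright patch of the TNF-treated Rela fl/fl array.

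Centromere and kinetochore genes had median differences of 0.20 without TNF and 0.29 with TNF over 8 of the 9 genes, of which 2 and 5 were higher beyond 2 spreads, where 13.9% and 15.1% of all genes were. Cenpa, the histone that marks the centromere, had signals of 3.06 and 2.71 in Rela fl/fl cultures and 3.92 and 3.33 on the cKO-labelled arrays, differences of 0.36 and 0.30. Ndc80, which grips the microtubule, was at 0.594 and 0.531, and at 0.711 and 0.581, so that the untreated Rela fl/fl array lay above the cKO-labelled array with TNF. The other genes of the Ndc80 complex were Nuf2, Spc24 and Spc25. Spc24, with a spot in a bright patch of the untreated Rela fl/fl array, differed by 0.07 and 0.22, and Spc25 by 0.14 and 0.28, the latter just within 2 spreads. Nuf2 was at 1.19 in Rela fl/fl cultures, where its spot lay in a patch, and at 0.759 with TNF, and at 1.02 and 0.922 on the cKO-labelled arrays. It had the lowest difference without TNF (-0.22) and one of 0.28 with TNF, and its further probe, not well above background on any array, gave -0.57 and -0.27. Cenpe, a kinetochore motor with a spot in a bright patch of the untreated Rela fl/fl array, differed by 0.27 and 0.40. Cenpi and Cenpk, of the inner kinetochore, differed by 0.29 and 0.36 and by 0.04 and 0.32. Cenpf, a large protein of the outer kinetochore, was well above background only on the cKO-labelled array without TNF (0.0770), and its signals on the other arrays were 0.0647, 0.0464 and 0.0380.

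Genes of spindle microtubules and of cytokinesis were all above 0 in both comparisons. Prc1, which bundles the microtubules of the midzone, had signals of 8.20 and 8.49 in Rela fl/fl cultures and 10.3 and 11.2 on the cKO-labelled arrays, differences of 0.33 and 0.41. Tpx2, which activates Aurka on the spindle, differed by 0.34 and 0.48. A further probe of Tpx2 gave -0.07 without TNF and 0.98 with TNF. The 2 probes of Tpx2 thus differed in sign without TNF, and each had a spot in a bright patch of at least 1 array. Hmmr, which helps to focus the spindle, differed by 0.42 and 0.21, with its spot in a bright patch of the cKO-labelled array without TNF, and Nusap1, which stabilises spindle microtubules, by 0.24 and 0.11. Racgap1, of the centralspindlin complex with Kif23, was at 2.89 and 3.04, and at 3.89 and 3.63, differences of 0.43 and 0.26, and its further probe, with a spot in a bright patch of some array, gave 0.07 and 0.27. Ect2, its partner that activates RhoA, differed by 0.31 and 0.26. Anln, which organises the contractile ring, differed by 0.47 and 0.34, with a spot in a bright patch of the untreated Rela fl/fl array. All 3 cytokinesis genes were higher beyond 2 spreads without TNF, and 1 with TNF, where 13.9% and 15.1% of all genes were.

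**Figure D4:**
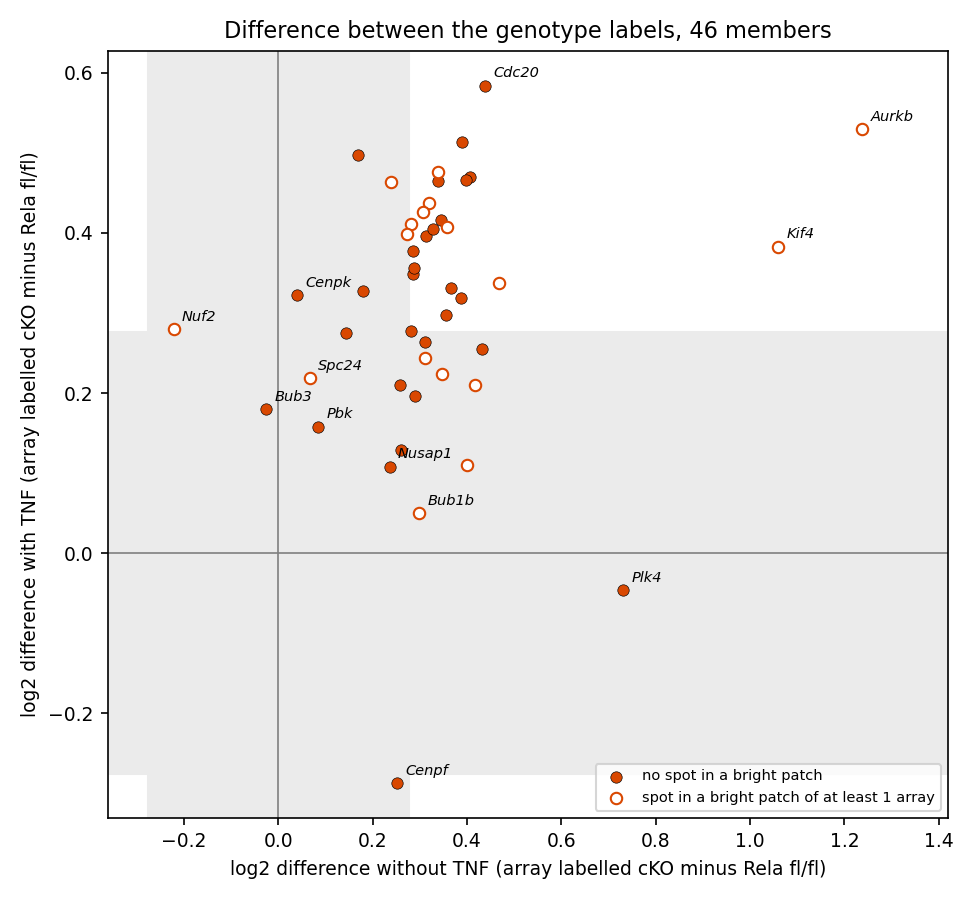
Log2 difference (cKO-labelled array minus Rela fl/fl) of each of the 46 genes without TNF (x axis) and with TNF (y axis). Open points have a spot in a bright patch of at least 1 array, grey bands span 2 technical spreads to either side of 0, and 23 of the 45 genes well above background on all arrays lie beyond the bands on both axes.

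With TNF against without it, the mitosis and spindle genes had median differences near 0 under either genotype label. The median was -0.03 in Rela fl/fl cultures and -0.02 on the cKO-labelled arrays, compared with 0.01 and 0.06 over all genes. In Rela fl/fl cells, 14 of 45 genes lay above 0, 1 was higher beyond 2 spreads (2.22%, where 9.4% of all genes were) and 2 were lower (4.44%, where 9.81% of all genes were). On the cKO-labelled arrays, 22 of 45 lay above 0, 1 was higher beyond 2 spreads (where 11.1% of all genes were) and 4 were lower (8.89%, where 12.7% of all genes were). The number lower there depended on the scaling, and was 9 without scaling, where 19.1% of all genes were lower and the median of all genes shifted from 0.06 to -0.05. Relative to the median of all genes, the median of the 45 was 0.08 lower under both. In Rela fl/fl cells, 0 genes were beyond 1 on the log2 scale, where 2.39% of all genes were higher and 4.26% lower. On the cKO-labelled arrays, 0 were higher, where 0.759% of all genes were. Cenpf was lower by 2.03-fold, where 4.26% of all genes were lower. That call rests on a dim spot that was not well above background with TNF. Targets of NF-κB responded on the same arrays, with a median of 1.01 over 24 of 28 targets in Rela fl/fl cultures and 0.59 over 24 on the cKO-labelled arrays. Beyond 2 spreads, 22 of 24 and 17 of 24 were higher, where 9.4% and 11.1% of all genes were.

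The genes beyond 2 spreads with TNF were 3 in Rela fl/fl cultures and 5 on the cKO-labelled arrays. In Rela fl/fl cells, Plk4 was higher by 0.63, from 0.0573 to 0.0888, Nuf2 lower by 0.65 and Kif20a lower by 0.34, from 4.08 to 3.24. The Nuf2 spot without TNF lay in a bright patch of that array. Plk4 was dim, and under normexp its rise was 0.25, within 2 spreads. On the cKO-labelled arrays, Kif15 was higher by 0.43, from 0.0985 to 0.133. Its rise was 0.15 under normexp, within 2 spreads, and 0.70 under quantile normalization. Kif4 was lower by 0.82 and Aurkb by 0.59, both from an array on which their spots lay in a patch, and Ccnb2 was lower by 0.30 and Ndc80 by 0.29. With patches left out, 1 of 32 genes was higher beyond 2 spreads under each genotype label, where 8.51% and 11.3% of all genes were, and 0 and 1 were lower, where 8.07% and 11.3% of all genes were. The change with TNF on the cKO-labelled arrays minus that in Rela fl/fl cultures had a median of 0.07 and quartiles of -0.10 and 0.13, compared with 0.05 over all genes. Beyond 2 technical spreads of such a difference of differences (0.39), 4 of the 45 genes were found, Nuf2 above and Aurkb, Plk4 and Kif4 below, or 8.89%, compared with 18.1% of all genes.

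Other genes of the cell cycle did not all follow the same pattern. A list of 56 further mitotic genes, of which 55 were on the array, had medians of 0.28 without TNF and 0.30 with TNF on the cKO-labelled arrays, and 27 of 54 and 29 of 55 were higher beyond 2 spreads and 1 and 3 lower, where 13.9% and 15.1% of all genes were higher and 11.1% and 10.5% lower. Sapcd2, a regulator of spindle orientation, was highest without TNF (0.83) and Mybl2, the B-Myb of the mitotic programme, with TNF (0.74). Cenpm was lowest without TNF (-1.44) and Troap with TNF (-3.64), and Sapcd2, Cenpm and Troap each had a spot in a bright patch of at least 1 array. Genes of DNA replication (38 of 38 well above background on all arrays) differed by a median of 0.07 without TNF, with 3 of 38 higher beyond 2 spreads (7.89%), and by 0.35 with TNF, with 29 of 38, against the same shares of all genes. Rrm2, a subunit of ribonucleotide reductase, was at 13.7 and 13.6 in Rela fl/fl cultures and at 20.2 and 22.5 on the cKO-labelled arrays. Cdc6, which loads the replicative helicase, was highest with TNF (0.86), and Orc1, of the origin recognition complex, was lowest without TNF (-0.20) and at 0.61 with TNF. The change with TNF on the cKO-labelled arrays minus that in Rela fl/fl cultures had a median of 0.29 over the replication genes, with 35 of 38 above 0, compared with 0.07 and 26 of 45 for the mitosis and spindle genes. None of these values comes from a replicated test.

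Regulators of these genes, 41 in all (cyclin-dependent kinase inhibitors, E2F and pocket proteins, DREAM and NF-Y subunits among them), had medians of 0.03 without TNF and 0.11 with TNF, and 5 of 39 were higher beyond 2 spreads and 1 lower in each comparison, where 13.9% and 15.1% of all genes were higher and 11.1% and 10.5% lower. E2f7, a repressor of the E2F programme, was highest in both (0.48 and 0.73), with a spot in a bright patch of at least 1 array. Cdkn1c, the cyclin-dependent kinase inhibitor p57, which is abundant in cartilage cells that leave the cycle, was lowest in both. Its signals were 75.3 and 53.6 in Rela fl/fl cultures and 35.4 and 33.3 on the cKO-labelled arrays, which was lower by 1.09 without TNF and by 0.68 with TNF on the log2 scale. Both cKO-labelled arrays lay below both Rela fl/fl arrays, and a Cdkn1c spot lay in a bright patch of at least 1 array.

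**Figure D5:**
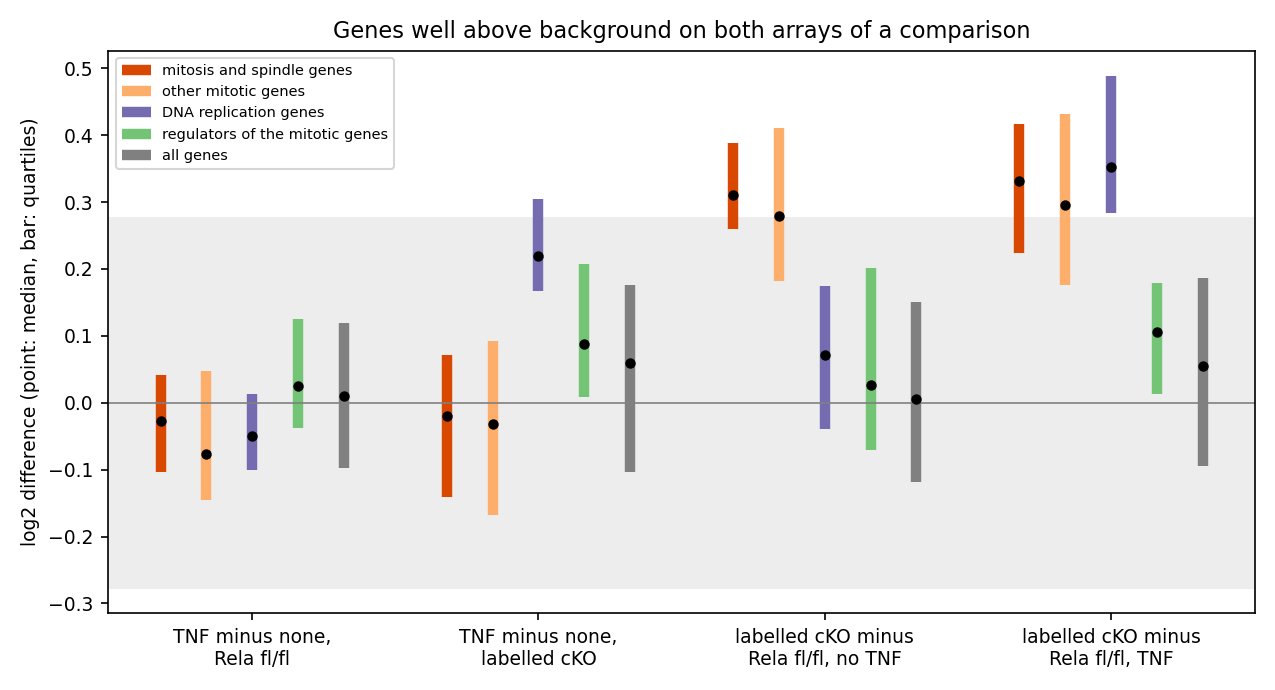
Median (point) and quartiles (bar) of the log2 difference in each of the 4 comparisons, for the mitosis and spindle genes, other mitotic genes, DNA replication genes, regulators of the mitotic genes and all genes, each over genes above the background mark on both arrays; the grey band spans 2 technical spreads to either side of 0. The mitosis and spindle genes stand at 0.31 and 0.33 between the genotype labels and at -0.03 and -0.02 for TNF, and the replication genes at 0.07 without and 0.35 with TNF between the labels.

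Markers of cell types moved with the genotype label too. All 15 chondrocyte markers were below 0 without TNF and 14 of 15 with TNF, with medians of -0.64 and -0.47, and Matn1, a cartilage matrix protein, was lowest in both (-1.85 and -1.18). Osteoblast markers went the other way in the 3 genes above the background mark in each comparison, with Ibsp, a bone matrix protein, higher by 1.14 and 0.97, and the summed signal of 5 such markers was 5.01 and 4.14 in Rela fl/fl cultures and 10.3 and 7.89 on the cKO-labelled arrays. Fibroblast markers, 8 of 8 well above background, summed to 1289 and 1331, and to 1210 and 1207, and their median differences were -0.21 without TNF (6 of 8 below 0, 3 lower beyond 2 spreads, Thy1 lowest at -1.59) and -0.25 with TNF (8 of 8 below 0, 3 lower beyond 2 spreads, Postn lowest at -0.42). For leukocytes, 6 of 8 markers were well above background on each array, with summed signals from 37.8 to 46.2, and Ptprc, which defines them, was not on any. For endothelium, 2 or 3 of 5 markers were, with sums from 17.8 to 20.7, and Cdh5 was not on any array. Of 5 skeletal muscle markers, 1 or 2 were, with sums of 1.88 and 1.75 and of 2.75 and 2.57, and of 3 erythroid markers 1 or 2, with sums from 0.103 to 0.148. The part of cell composition in the difference of the mitosis and spindle genes was not tested.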

How the data were processed

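Total RNA of each culture was labelled with Cy3 and read on a 1-colour Agilent array, 4 arrays in all. The authors deposited the processed intensity of each spot from Agilent Feature Extraction 10.10.1.1 (submitters' processing notes), with background subtracted, and a value table of scaled intensity. The log2 intensity was lowered by the array's 75th percentile over 59305 transcript spots (590 to 634 intensity units, 0 saturated spots). Spots flagged as outliers were left out and spots of a probe averaged. Of 55619 probes kept, 50.9% to 58.1% were well above background, and a gene took the probe brightest on average. The files name probes by accession, and 20418 of 20791 NM accessions were matched to symbols of RefSeq on GRCm38.p6. The array files name mm9, so no coordinates of probes were used. Patches held 1.04% to 10.7% of spots, and were spots with 3 or more neighbours (5 rows and 2 columns to each side) at least 2-fold brighter on that array than on each other one, a rule taken from an earlier analysis of these data.

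Calls at a log2 difference of 1 needed a signal well above background on the brighter array, and a dimmer signal that missed this mark kept its value unless it lay under the lowest passing value of its array, which then replaced it. The limit of 2 technical spreads, and centring on genes well above background on all arrays, were added after seeing the data. The members and gene lists were chosen with earlier results of these data known. All members were named by role, with signals for 17 of them and for those with the largest differences. Promoters were taken, from a fixed order of 8 genes, where a CHR lay before the start. Alternatives covered scaling, quantile and normexp (offset 50) background, filters, limits, probes and patches. The calls were tested on simulated data. Python 3.11.15, pandas 2.3.3, R 4.3.3 and limma 3.58.1 were used. The number of arrays limits the precision, and no p-value was computed.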

Additional observations from a re-analysis of the deposited data

How the results depend on the processing

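No condition has a second array, so no replicate numbers pair the samples. An additive fit of genotype label and TNF over the 4 arrays was not run. Differences between the genotype labels held their direction: with other scalings, backgrounds, probes or patches left out, the median of the mitosis and spindle genes stayed within 1 technical spread of its value, and both cKO-labelled arrays lay above both Rela fl/fl arrays for 36 of 45 genes (authors' value table) to 43 of 45 (normexp). Beyond 2 spreads, 19 genes were higher with TNF under normexp (8.66% of all genes) in place of 29, and 1 was lower without TNF with the mean over probes (13.3%). Genes higher beyond 1 on the log2 scale without TNF numbered 0 under normexp, at 3-fold and with patches left out. For TNF on the cKO-labelled arrays, genes lower beyond 2 spreads numbered 9 without scaling and in the authors' table (19.1% and 19.7% of all genes), 7 under quantile normalization (9.03%), 2 under normexp (6.98%) and 1 of 32 with patches left out (11.3%), and genes higher 2 under quantile normalization (16.7%), 0 under normexp (7.02%) and 3 with the next brightest probe (11.4%). Genes lower beyond 1 there numbered 0 under quantile normalization, normexp, a filter on both arrays and 3-fold. At 1.5-fold 3 were lower, where 2031 of all 24903 genes tested were. In Rela fl/fl cells, 0 were higher beyond 2 spreads under normexp (6.11% of all genes). With the mean over probes 4 were lower (13.5%), and with patches left out 0 (8.07%). At 1.5-fold 1 was higher and 1 lower, where 1022 and 1509 of all 23408 genes tested were. Over all genes, TNF on the cKO-labelled arrays gave 189 higher and 1060 lower genes, and 308 and 893 under quantile normalization, 60 and 493 under normexp, 100 and 479 with both arrays well above background and 117 and 269 with patches left out. With patches left out, the genotype label gave 233 higher and 158 lower without TNF in place of 856 and 1005, and 199 and 166 with TNF in place of 288 and 753, which turns the balance in both, and TNF in Rela fl/fl cells gave 99 and 119 in place of 560 and 998. Of 1424 values of single genes, 1367 moved by less than 1 spread and 53 by more, some of these from one side of 0 to the other. A further 4 that had been beyond 2 spreads changed sign: with the next brightest probe, Kif2c (-0.021) and Tpx2 (-0.07) without TNF and Nuf2 (-0.27) with TNF, the last also with patches left out. The cause was not tested.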
